A study of Mus musculus with 3 samples.

Results

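Broad H3K4me1 domains were the enriched regions wider than 10 kb on chromosomes 1 to 19 of cytokine-treated mouse islets, and they were selected on width alone. They numbered 1322 of the 65124 regions on these chromosomes, or 2.03% (95% exact binomial interval 1.92 to 2.14%), and the whole deposited list held 65709 regions. H3K4me1 ChIP-seq was performed to find chromatin in an active or poised state in islets under inflammatory stress. The islets came from mice given as CD1, aged 8 to 12 weeks, in the sample labels and as ICR, aged 8 to 10 weeks, in the methods, with no genetic alteration stated. They were cultured for 4 days with a low dose of 3 inflammatory cytokines, namely IFNγ at 1.6 ng/ml, IL-1β at 0.25 ng/ml and TNFα at 0.16 ng/ml. DNA of 4 ChIP experiments, with islets from at least 10 mice, was pooled into 1 library, so no domain had a replicate and no difference between conditions was measured. Untreated islets, and gene expression in either condition, were not analysed here.

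Monomethylation of lysine 4 of histone H3 is laid down largely by the MLL3 and MLL4 enzymes and marks enhancers as well as the flanks of active promoters. At an active promoter with a CpG island, a stretch rich in CG dinucleotides, the nucleosomes next to the start usually carry trimethylation instead, and monomethylation lies to the sides. Wide stretches of enhancer marks are known from genes that define a cell type, where several enhancers lie close together. Islets are made mostly of insulin-secreting β-cells, with glucagon, somatostatin and pancreatic polypeptide cells, and an isolated preparation also holds endothelial, stromal, immune and exocrine cells.

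Start-site sequences of 5 genes show what a domain did and did not cover. Each runs 5′ to 3′ on the gene's own strand, from 180 bases before the 5′-most annotated start through the 20 bases from the start on, in mm9, with every CG dinucleotide in capitals. The first 3 starts lay inside a broad domain, and the last 2 lay outside every region although a domain began within 2 kb downstream.
Slc2a2, chr3:28596645-28596844, plus strand: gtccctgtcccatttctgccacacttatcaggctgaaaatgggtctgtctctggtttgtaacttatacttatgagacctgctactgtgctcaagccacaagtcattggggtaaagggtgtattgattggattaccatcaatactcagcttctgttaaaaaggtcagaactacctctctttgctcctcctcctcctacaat
Foxa2, chr2:147872686-147872885, minus strand: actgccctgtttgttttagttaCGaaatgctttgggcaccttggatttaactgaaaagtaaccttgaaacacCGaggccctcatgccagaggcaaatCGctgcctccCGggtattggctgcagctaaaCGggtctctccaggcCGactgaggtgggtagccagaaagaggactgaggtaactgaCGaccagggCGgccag
Glp1r, chr17:31038605-31038804, plus strand: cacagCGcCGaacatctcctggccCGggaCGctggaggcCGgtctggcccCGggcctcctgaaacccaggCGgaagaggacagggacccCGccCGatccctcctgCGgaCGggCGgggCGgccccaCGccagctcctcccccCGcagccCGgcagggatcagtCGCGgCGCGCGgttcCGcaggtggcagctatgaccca
Abcc8, chr7:53435384-53435583, minus strand: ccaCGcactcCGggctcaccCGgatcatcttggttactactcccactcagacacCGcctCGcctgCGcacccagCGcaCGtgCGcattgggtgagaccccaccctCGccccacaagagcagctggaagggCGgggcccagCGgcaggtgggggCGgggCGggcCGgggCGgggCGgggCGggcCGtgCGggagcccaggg
Rab27a, chr9:72892492-72892691, plus strand: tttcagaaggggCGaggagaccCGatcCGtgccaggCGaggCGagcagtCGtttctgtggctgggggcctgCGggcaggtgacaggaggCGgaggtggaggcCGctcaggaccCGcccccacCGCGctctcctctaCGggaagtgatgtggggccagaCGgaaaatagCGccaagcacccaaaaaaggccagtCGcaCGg
The start of Slc2a2, which encodes the glucose transporter GLUT2, held 0 CG dinucleotides in these 200 bases. Foxa2, an endoderm and islet transcription factor, had 8, and Glp1r, the receptor of the incretin GLP-1, had 22. The uncovered starts of Abcc8, the regulatory SUR1 subunit of the β-cell ATP-sensitive potassium channel, and of Rab27a, a small GTPase that docks secretory granules, held 20 and 17.

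Mature microRNAs encoded within broad domains are shown because the domains held several that are well known in islets. The sequences are from RefSeq and the seed, bases 2 to 8, is in capitals.
miR-132-3p: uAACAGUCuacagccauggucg
miR-212-3p: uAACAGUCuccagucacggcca
miR-7b-5p: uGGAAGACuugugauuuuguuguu
miR-21a-5p: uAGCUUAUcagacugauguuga
miR-27b-3p: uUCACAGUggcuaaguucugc
miR-132-3p and miR-212-3p share the seed AACAGUC, and their genes, Mir132 and Mir212, lay in the same 14.0 kb domain at chr11:74979001-74993000. The other 3 seeds differ from each other and from this one. These microRNAs were chosen for printing after their positions were seen.

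The domains covered 20.98 Mb of the 138.9 Mb under all autosomal regions, so 2.03% of the regions held 15.1% of the covered sequence. Widths ran from 10.2 to 85.4 kb with a median of 13.3 kb (quartiles 11.4 and 17.0 kb). Most domains were near the width limit, and 217 were wider than 20 kb, 67 wider than 30 kb and 11 wider than 50 kb. The narrowest members, 58 regions of 10.2 kb, differed by 1 step of the 200 bp grid from the 49 regions of 10 kb just outside the limit. A further 2 regions over 10 kb lay outside chromosomes 1 to 19, a 22 kb region on the X chromosome and one of 11.6 kb on an unplaced piece of chromosome 1. The domains were spread unevenly, with a median of 0.524 per Mb over the 19 chromosomes. Chromosome 11 had the most, 140 domains or 1.15 per Mb, and chromosome 16 the fewest, 26 domains or 0.264 per Mb. Chromosome 11 also held 1653 protein-coding genes, against 674 on chromosome 16. The order of chromosomes by domains was not that by genes, since chromosome 7, with 2072 genes, had 0.564 domains per Mb.

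**Figure D1:**
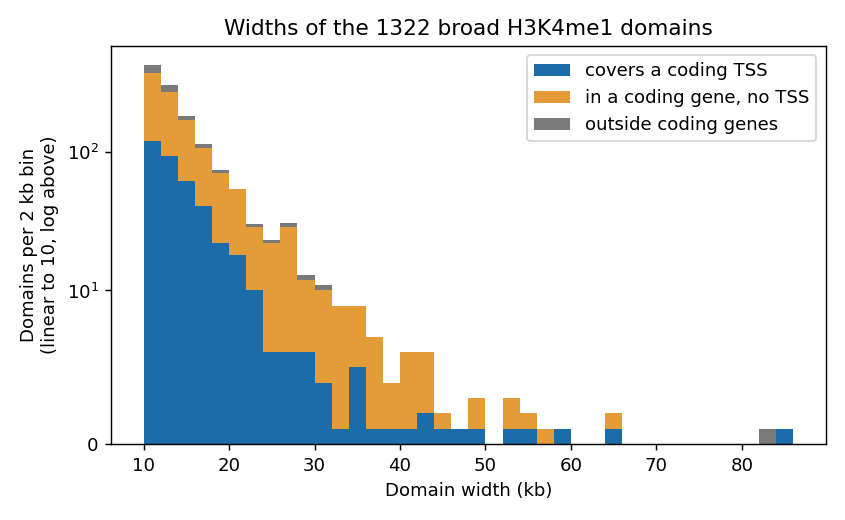
Number of broad domains per 2 kb of width, on an axis that is linear to 10 and logarithmic above, coloured by position relative to protein-coding genes. Counts fall from the narrowest bin on, and 11 domains lie beyond 50 kb.

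Broad domains lay mostly inside protein-coding genes. Of the 1322, 409 covered at least 1 transcription start site (TSS) of a protein-coding gene (30.9%, interval 28.5 to 33.5%), 800 overlapped a gene without covering a TSS (60.5%, 57.8 to 63.2%) and 113 touched no protein-coding gene (8.55%, 7.10 to 10.2%). The share over a TSS depends on what counts as one, and was 18.9% for the 5′-most start of each gene and 9.15% for domains with the midpoint within 2 kb of a TSS. In regions of 5.2 to 10 kb these shares were 27.1%, 56.6% and 16.4%, and in regions of at most 1 kb they were 4.14%, 52.0% and 43.8%. A wider region meets a TSS or a gene more easily by its length, so these shares are given side by side and not as a property of the domains. By length of sequence, 87.4% of the base pairs in broad domains were inside genes, compared with 77.1% at 5.2 to 10 kb, 65.8% at 1.2 to 5 kb and 54.8% at most 1 kb. All intervals in this account are 95% exact binomial intervals and cover counting error only.

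**Figure D2:**
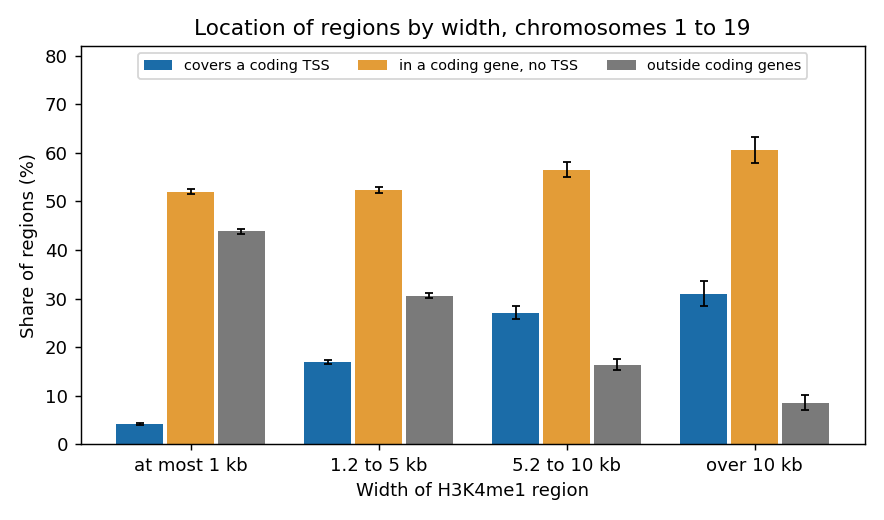
Share of H3K4me1 regions in percent, by width class, that cover a protein-coding TSS, lie in a gene without its TSS or lie outside genes, with 95% exact binomial intervals as error bars. The share outside genes is 43.8% at the narrowest class and 8.55% above 10 kb.

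Most domains were the domain of a single gene. A total of 1087 overlapped exactly 1 protein-coding gene, 102 overlapped 2, 14 overlapped 3 and 6 overlapped 4, and 923 (69.8%, 67.3 to 72.3%) lay wholly within the body of 1 gene. The host, taken as the gene with the largest overlap, was a long gene. The 948 distinct hosts had a median length of 58.0 kb, against 15.5 kb for all 21418 autosomal protein-coding genes. Hosts of the narrower classes, counted once per region, were long as well, with medians of 70.2 kb at 5.2 to 10 kb, 80.9 kb at 1.2 to 5 kb and 107.6 kb at most 1 kb, against 72.9 kb for the broad domains, so long hosts were not a feature of the broad domains alone.

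A domain covered a median of 20.3% of its host gene (quartiles 9.70 and 38.9%). Domains that covered a TSS took 32.4% of the host at the median, and domains inside a gene without its TSS took 15.6%. At least 50% of the host was covered by 209 of 1209 domains (17.3%, 15.2 to 19.5%), and at least 75% by 88. In the other direction, 66 protein-coding genes lay entirely inside 57 domains. These were short genes, with a median of 4.00 kb. The longest of them were Gm9869 (16.3 kb), Bcl3 (14.3 kb), an IκB-like partner of NF-κB, Hnrnpl (13.7 kb), an RNA-binding regulator of splicing, Gsdma (13.4 kb), a gasdermin, and Cant1 (12.8 kb), a nucleotidase. Bcl3 at chr7:20393811-20408119 was enclosed by a 21.2 kb domain.

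The 6 domains that overlapped 4 genes were between 12.2 and 19.8 kb wide and lay in gene-dense stretches. The widest of them, 19.8 kb on chromosome 10, overlapped Zbtb39, Gpr182, Rdh1 and Rdh9, the last pair encoding retinol dehydrogenases. A 13.2 kb domain on chromosome 7 overlapped Car11, Dbp, Sphk2 and Rpl18, where Dbp is a clock-controlled transcription factor and Sphk2 a sphingosine kinase.

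Among all 21418 autosomal protein-coding genes, 457 had a TSS in a broad domain (2.13%) and 1076 had a body overlapped by one (5.02%). With the 5′-most start alone the first count was 301. A region of any width covered a TSS of 8049 genes (37.6%). Of the overlapped genes, 174 carried at least 2 domains and 57 at least 3, and 288 were covered over at least 50% of their length. Neighbouring domains were in some cases separated by a short break, since 22 of the 1303 gaps between domains following each other on a chromosome were at most 1 kb and 121 at most 5 kb.

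At the start itself, domains extended mainly into the gene. The 353 domains with the TSS of exactly 1 gene reached a median of 9.78 kb downstream (quartiles 6.76 and 13.3 kb) and 3.33 kb upstream (1.22 and 7.40 kb) of it. Of these, 257 reached farther downstream than upstream (72.8%, 67.8 to 77.4%). In 159 at least 80% of the domain lay downstream, and in 32 at least 80% lay upstream. The domain ended within 1 kb upstream of the TSS in 71 cases and within 1 kb downstream of it in 12. The lean into the gene was seen at other widths too, in 73.6% (70.6 to 76.4%) of regions of 5.2 to 10 kb and 74.9% (73.6 to 76.1%) of regions of 1.2 to 5 kb.

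The lean was measured separately for domains at the 5′-most start of a gene. In 195 of the 353 domains the 5′-most annotated start lay inside, and 164 of these (84.1%, 78.2 to 88.9%) reached farther downstream, with medians of 10.4 kb downstream and 2.01 kb upstream. The other 158 covered an internal start only, and 93 of these (58.9%, 50.8 to 66.6%) reached farther downstream. For an internal start, the upstream side can still be the body of the same gene. Large upstream reaches of this kind were 45.6 kb at Gse1 and 41.9 kb at 4933407C03Rik, and both domains lay wholly within their gene. Where the 5′-most start was covered, the farthest upstream reach was 19.7 kb, at St3gal3, a sialyltransferase. The farthest downstream reaches were 52.3 kb at Sfi1, a centrosomal protein, 51.1 kb at Rps6ka2, a ribosomal S6 kinase, and 47.7 kb at Shb, an adaptor of receptor tyrosine kinase signalling, where the covered start is internal.

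**Figure D3:**
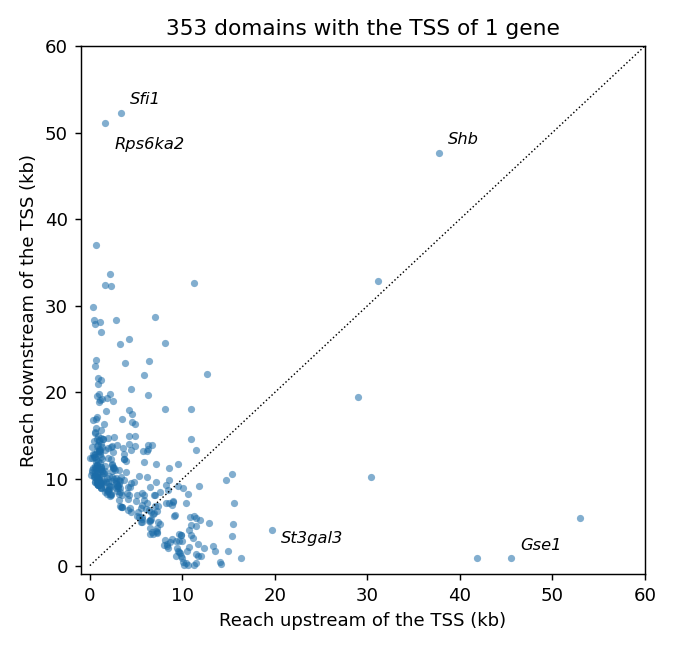
Reach of each of the 353 domains with the TSS of 1 gene, in kb upstream (horizontal) and downstream (vertical) of that TSS, with a dotted line where both are equal. Most points, 257, lie above the line, and Gse1, whose covered start is internal, lies far to the right.

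A further 51 domains covered the TSS of 2 genes and 5 covered the TSS of 3. Among the 51, the genes of 24 were head to head, those of 13 ran in the same direction, and those of 14 were in another arrangement.

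Seen from the gene, broad domains were rare at the start and more frequent beyond it. Over the 5′-most starts of the 21418 genes, a broad domain was present at 1.41% of genes at the start. It was present at 2.89% 9 kb downstream and at 1.60% 49 kb downstream. Upstream, the share was lowest at 5 kb, with 0.901%, and was 1.09% at 20 kb and 1.41% at 50 kb. The share at the start was thus about that found 50 kb upstream. Narrower regions had a different shape, with 7.17% of genes 5 kb upstream, 31.0% at the start, 32.1% 1 kb downstream and 9.11% 9 kb downstream. The narrower regions were most frequent 1 kb inside the gene and the broad domains 9 kb inside. The width limit shapes this contrast, because a domain that begins within 2 kb past a start and is wider than 10 kb must still be present at 9 kb, whereas most narrower regions are too short to extend that far from the start.

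**Figure D4:**
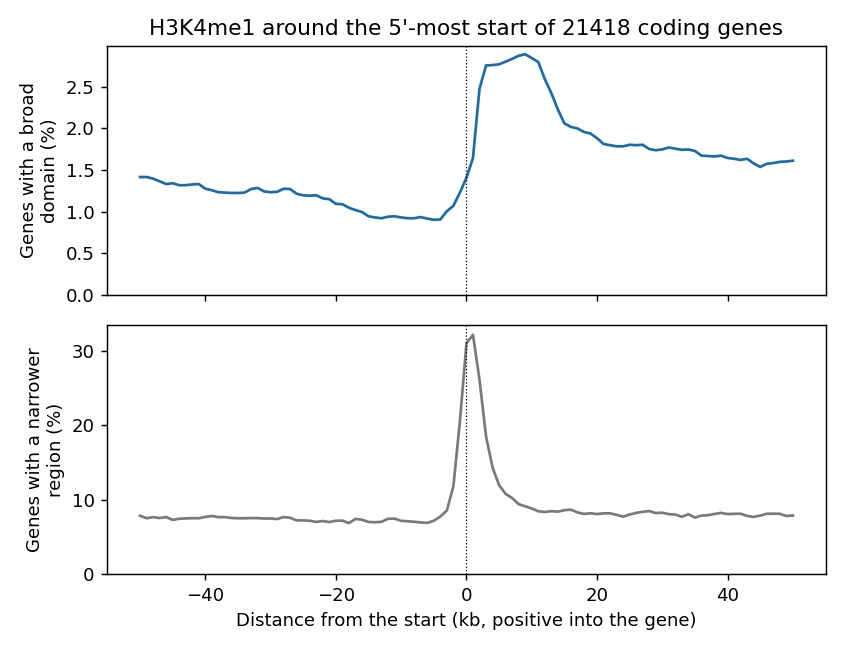
Percent of 21418 protein-coding genes with a broad domain (upper plot) or a narrower region (lower plot) at each distance in kb from the 5′-most start, positive into the gene. The broad domains rise from 1.41% at the start to 2.89% at 9 kb, and the narrower regions fall from 31.0% at the start to 9.11% at 9 kb.

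Domains inside a gene without its TSS often began just beyond the start. In 250 of the 800 the nearer edge lay within 2 kb of a TSS of the host (31.3%, 28 to 34.6%), and in 85 within 1 kb, while the median distance was 11.3 kb. Counted from the 5′-most start, 192 domains began 1 to 2000 bp downstream of it. Of these, 5 began within 500 bp, 34 in the next 500 bp, 90 in the 500 bp from 1 to 1.5 kb and 63 in the last 500 bp. The 500 bp after that held 39 more, so the fullest of these bins was 1 to 1.5 kb from the start. The midpoint lay in intron 1 of the host for 423 of the 800 domains (52.9%, 49.3 to 56.4%), in another intron for 342 and in an exon for 14. Intron 1 took 53.6% of the length of these domains and 33.7% of the length of the 612 hosts. Of the 758 domains wholly inside the host, 566 had the midpoint in the 5′ 50% of the gene (74.7%, 71.4 to 77.7%). These positions were not measured for narrower regions inside genes, so they are not called particular to the broad domains.

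Starts left free by a domain just downstream were rich in CG dinucleotides. For 219 genes the 5′-most start was in no region and a broad domain began within 2 kb downstream. In the 500 bases around these starts the ratio of observed to expected CG dinucleotides was 0.904 at the median, and 204 of the 219 starts had a ratio over 0.6 (93.2%, 89.0 to 96.1%), a limit often used for CpG islands. For the 301 genes whose 5′-most start lay in a broad domain, the median was 0.724 and 205 starts passed 0.6 (68.1%, 62.5 to 73.3%). Starts in a narrower region were close to this, with a median of 0.740 and 70.6% (69.5 to 71.7%) of 6633 starts over 0.6. The 14265 remaining uncovered starts had a median of 0.392 and 39.1% over 0.6. These were not split by whether a narrower region lay just downstream. Whether the richness in CG is particular to starts beside a broad domain was therefore not tested. The sequences of Abcc8 and Rab27a printed above belong to the uncovered kind, with a domain that began 1403 and 929 bp from the start. The list genes Glis3, an islet transcription factor, Mll1, an H3K4 methyltransferase, and Tap1, a peptide transporter of antigen presentation, had the same arrangement. Their domains began 1967, 1379 and 1503 bp from the 5′-most start, although those at Glis3 and Tap1 covered an internal start. In windows of 200 bases like those printed, these starts held 24, 22 and 8 CG dinucleotides. The 8 at Tap1 were as few as at the covered start of Foxa2.

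The widest domain, 85.4 kb at chr4:45455001-45540400, lay within Shb (chr4:45436150-45545342, minus strand) and covered 78.2% of it. It began 4.94 kb inside the gene, and a separate narrow region lay across the 5′-most start. An 83.0 kb domain at chr6:31017801-31100800 overlapped no protein-coding gene, and the nearest coding TSS, that of AB041803, was 67.6 kb away. Its edge was 5.05 kb from Mir29a and 4.70 kb from Mir29b-1, microRNA genes of the miR-29 family, which lay outside it. Domains of 64.0 kb were found in Rap1gap2, a GTPase-activating protein of Rap1, where this domain covered 30.9% of the gene and its 3 domains together 44.3%, and at 2010111I01Rik, where the domain also held Mir23b and Mir27b.

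Abcc8 and Kcnj11, whose products form the β-cell ATP-sensitive potassium channel, were each under a domain. Abcc8 (chr7:53359893-53435403, minus strand) carried a 57.8 kb domain over 76.5% of its length, which began 1.40 kb from the start, and with the edge of the next domain 79.9% of the gene was covered. That next domain, 12.8 kb wide, contained all of Kcnj11. Of the other widest domains, the 55.6 kb domain covered 84.8% of Sfi1, the 55 kb domain 73.3% of Slc6a6, the taurine transporter, the 52.8 kb domain 38.4% of Rps6ka2 and the 52.6 kb domain 42.1% of Gng12, a G protein γ subunit. The Slc6a6 domain began 1540 bp from the 5′-most start, and that start was itself in another region.

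**Figure D5:**
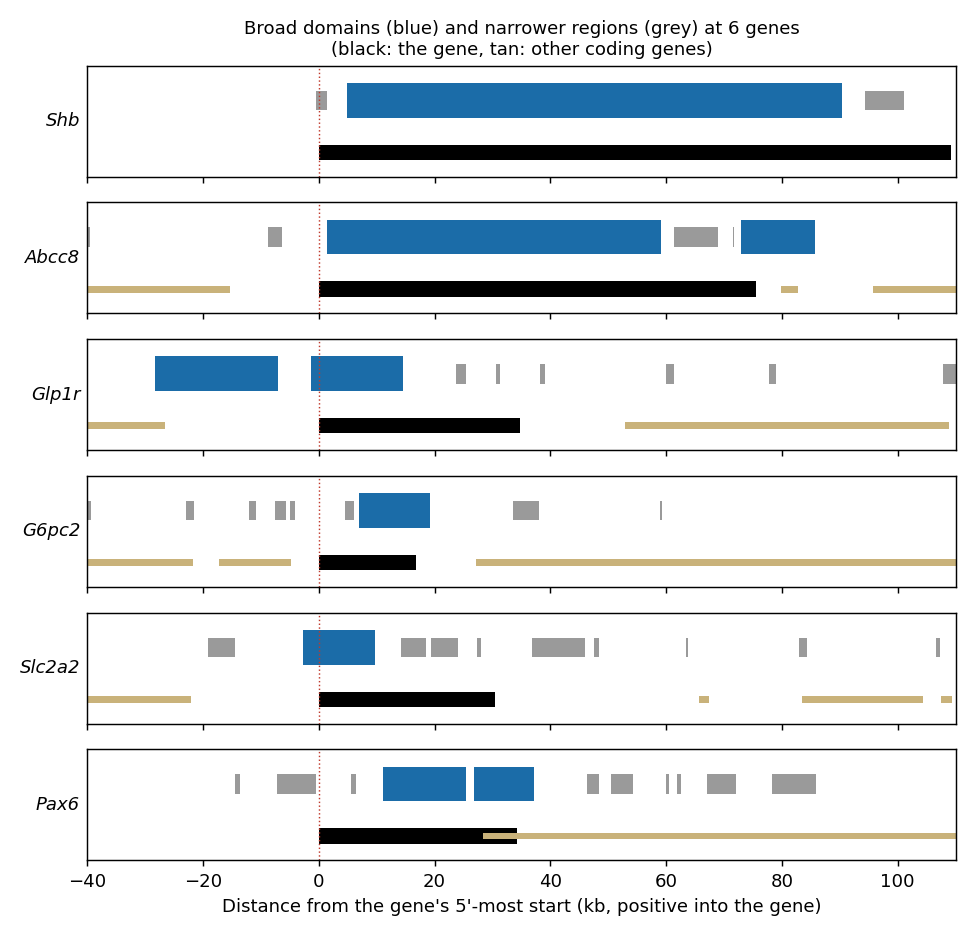
Broad domains (blue), narrower regions (grey), the named gene (black) and other protein-coding genes (tan) at 6 loci, against distance in kb from the gene's 5′-most start, positive into the gene. The Shb and Abcc8 domains begin 4.94 and 1.40 kb inside the gene, while the Slc2a2 and Glp1r domains extend across the start.

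Several long genes carried a row of domains. The gene model with the most, 13, was Gm20388, which spans 4.43 Mb and runs across other genes. Cacna1c, the pore subunit of an L-type calcium channel of β-cells, had 8 domains of 11 to 28.6 kb that together covered 148.4 kb or 24.6% of the gene. None of them covered a TSS of the gene, and a region of 1.6 kb did. Arid1b, a subunit of the BAF chromatin remodelling complex, also had 8 (31.1% of the gene), and Agap1, an Arf GTPase-activating protein, Rere, a transcriptional coregulator, and Fmnl2, a formin, had 6 each (28.1%, 31.8% and 36.8%). Some of these rows were nearly continuous. The 3 domains of Cpe, the carboxypeptidase that trims prohormones, were 26.0, 18.2 and 13.4 kb wide with breaks of 1.2 and 0.8 kb between them, and covered 57.3% of the gene.

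Of 28 annotated genes of glucose sensing, granules and exocytosis, 7 had a TSS in a domain and 18 were overlapped by one (all genes, 2.13% and 5.02%). With the limit at 15000 bp 2 of them had a covered TSS, and of the islet transcription factors 3 did. The genes with a covered TSS were Slc2a2, G6pc2, an islet glucose-6-phosphatase, Kcnj11, Glp1r, Snap25 and Vamp2, the SNARE proteins of granule fusion, and Rab3a, a granule GTPase. The Slc2a2 domain, 12.6 kb at chr3:28594001-28606600, reached 2.82 kb upstream and 9.78 kb downstream of the start and covered 32.1% of the gene. The Glp1r domain was 16.0 kb, with 1.38 kb upstream and 14.6 kb downstream, and a second domain lay 6.99 kb before the start. Vamp2, Rab3a and Kcnj11 are short genes of 3.90, 4.00 and 3.08 kb and lay wholly inside domains of 12.0, 15.8 and 12.8 kb. The domain of Rab3a also held all of Ifi30 and Mpv17l2, so it cannot be assigned to Rab3a alone. The G6pc2 domain, 12.4 kb, covered an internal start of its gene model, 10.4 kb from the downstream edge, and the 5′-most annotated start lay 6.87 kb before the domain. Among genes overlapped without their TSS were the prohormone convertase Pcsk2 with 2 domains (16.6% of the gene), the zinc transporter Slc30a8 (27.8%), the granule protein Ptprn2 with 4 domains (6.79%) and Syt7, a calcium sensor of exocytosis (20.6%). Scg5, a chaperone of the convertase, was covered over 20.1%, Ero1lb, an oxidase of the endoplasmic reticulum in β-cells, over 33.5%, and Cacna1d, a calcium channel subunit, over 2.70%. Genes of this list had a median length of 40.5 kb, above the 15.5 kb of all genes, and the part of length in these counts was not tested.

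Of 27 annotated islet transcription factors, 4 had a TSS in a domain and 7 were overlapped (all genes, 2.13% and 5.02%). The TSS was covered at Pax6, a regulator of endocrine differentiation, at Foxa2, at Glis3, which acts on insulin transcription, and at Myt1, a zinc finger factor of endocrine progenitors. Foxa2 is 4.09 kb long and lay wholly in a 16.0 kb domain. Pax6 (chr2:105509053-105543317) had 2 domains of 14.2 and 10.4 kb that were 1.4 kb apart, the first over an internal start and 11.1 kb from the 5′-most one, and 63.4% of the gene was covered. The Glis3 gene had 3 domains, of which the one over a TSS was 24.8 kb. Isl1, Rfx3 and Meis2 were overlapped without their TSS. With only the 5′-most start counted, 2 of the 27 had their start in a domain, Foxa2 and Myt1. Pdx1, a master regulator of β-cell identity, is not among them, but an 11.4 kb domain outside genes ended 0.335 kb upstream of its start. The 8 islet hormone genes had no domain at their TSS or over their body, and 1 of them, Ins2, had a region at its TSS, of 2.2 kb. The hormone genes were short, with a median of 2.58 kb, but the Ins2 gene model spans 20.9 kb. Any annotated coding start counts, and which start of Ins2 the region covered was not checked.

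Genes of the response to the cytokines included a few under domains. Of 33 genes of NF-κB, interferon and AP-1 responses, 3 had a TSS in a domain and 7 were overlapped (all genes, 2.13% and 5.02%). With the limit at 8000 bp 7 of them had a covered TSS, and at 15000 bp 1 did. The 3 were Tap1 and Psmb8, an immunoproteasome subunit, which shared 1 domain of 12.8 kb, and Birc3, an inhibitor of apoptosis induced by NF-κB. The Birc3 domain, 21.2 kb at chr9:7853801-7875000, reached 1.81 kb upstream and 19.4 kb downstream and covered 79.2% of the gene. The body of Stat3 was covered over 57.7%, that of Socs3, a feedback inhibitor of cytokine signalling, over 60.7%, and those of Nfkb1 and Irf2 over 14.2% and 14.3%. The other members had narrower regions or none at their TSS. A 12.6 kb domain ended 0.116 kb upstream of the start of Irf1, an interferon-induced transcription factor of this list, and is counted among the domains outside genes. Nos2, the inducible nitric oxide synthase, had a region of 9.4 kb and Nfkbia, which encodes the NF-κB inhibitor IκBα, one of 7.0 kb. None of 12 annotated chemokine and cytokine genes had a domain at its TSS or over its body, and 7 had a narrower region at the TSS, of 1.6 to 4.4 kb. Of 11 trithorax group and H3K27 demethylase genes, Kdm6b had a TSS in a domain, of 10.2 kb, and Mll1 was overlapped over 16.7%. Against the 2.13% of all genes with a covered TSS, these counts of 0 of 12 and 1 of 11 come from few genes.

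Genes of other cell types and general functions were counted in the same way. None of 11 leukocyte, 14 endothelial and stromal, 9 skeletal muscle and 9 forebrain neuron genes had a TSS in a domain, whereas 1 of 15 acinar and duct genes did, Krt19, a keratin of duct epithelium, and 1 of 12 hepatocyte genes, Apoa2, an apolipoprotein. Pecam1, an endothelial adhesion molecule, was overlapped without its TSS. Among the domains outside genes, one of 14 kb lay 0.428 kb from a TSS of Krt8, of the acinar and duct list. Another, of 10.6 kb, lay 2.34 kb from a TSS of Tat, of the hepatocyte list. Of 12 housekeeping genes 0 had a TSS in a domain, and Ywhaz was overlapped. At the 2.13% of all genes, lists this short would hold few or no such genes, so the counts of 0 do not set them apart. The part of other cell types of the preparation in the domains was not tested.

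Of 1468 autosomal microRNA genes, 26 lay in a broad domain (1.77%) and 163 in a region of any width (11.1%). Of the 26, 12 carry a Mir name, and RefSeq sequences were matched for 11 of these. Mir375, an abundant islet microRNA, lay at chr1:74947226-74947300 in an 11 kb domain next to Cryba2, with 2.30 kb of the domain upstream of it and 8.70 kb downstream. Mir7b, a further islet microRNA whose mature form is printed above, lay in an 11.2 kb domain, with 1.81 kb upstream and 9.39 kb downstream. Mir21 was at the edge of a 10.2 kb domain, with 0.14 kb upstream, and that domain met the 3′ end of Vmp1, of which it covered 0.434%. Mir132 and Mir212, induced by cyclic AMP in β-cells and neurons, were near the middle of their domain, which also covered the TSS of Hic1 and Ovca2. The others were Mir23b, Mir27b, Mir340 in a 33.2 kb domain over Rnf130, Mir345, Mir1192 in Klf9, Mir1894, and Mir1957 in a 33.8 kb domain over Slc2a1, the gene of the glucose transporter GLUT1.

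The 113 domains outside protein-coding genes had a median width of 12.0 kb and lay a median of 26.7 kb from the nearest coding TSS (quartiles 8.25 and 78.4 kb). Of these, 47 were within 20 kb of one and 19 were over 100 kb away. After the 83.0 kb domain near Mir29a, the widest were 31.4 kb near Plekha6, 29.6 kb near Tomm20, and 27.8 kb near each of Cacna1a and Sept10, with 18.7, 93.1, 53.3 and 36.6 kb between domain and TSS.

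Broad domains had close neighbours. The gap to the nearest other region had a median of 2.2 kb (quartiles 1.4 and 3.6 kb), against 2.6 kb at 5.2 to 10 kb, 4.6 kb at 1.2 to 5 kb and 6.2 kb at most 1 kb. A median of 4 other regions lay within 20 kb of a domain, against 3, 2 and 2 in the narrower classes, and 22 domains had none.

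The sequence of the domains was 46.9% G and C, near that of narrower regions (46.3 to 46.7%) and above the 41.9% of the autosomes. They held 12.6 CG dinucleotides per kb, fewer than regions of 5.2 to 10 kb (14.0) and 1.2 to 5 kb (16.7) and more than the autosomes (8.51). Exons of protein-coding transcripts made up 3.34% of their length, against 5.57% at 5.2 to 10 kb and 2.61% over the autosomes, and 10.8% of their length lay within 2 kb of a coding TSS, against 17.6% and 4.34%. Single domains ranged from 34.5 to 58.1% G and C.

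Short motifs were counted on both strands in domains, narrower regions and autosomes, where a match is only a run of letters. CAGATGG, an E-box bound by Neurod1, occurred 27.2 times per 100 kb in domains, 25.9 at 5.2 to 10 kb, 29.02 at most 1 kb and 21.0 over the autosomes. In the same order, the homeodomain motif TAATTA occurred 27.8, 30.1, 36.96 and 40.7 times, and the forkhead motif TGTTTAC 15.4, 17.0, 22.5 and 15.7 times. For the inflammatory factors, the AP-1 motif TGANTCA gave 34.2, 34.0, 43.0 and 31.9, the STAT motif TTCNNNGAA 31.6, 33.0, 35.8 and 39.98, the IRF motif GAAANTGAA 7.78, 9.06, 10.8 and 12.3, and the NF-κB motif GGGANTTCC 3.84, 3.50, 4.26 and 2.69. For each of the 7 motifs the rate was higher in regions of at most 1 kb than in the domains. The autosomes are lower in G and C, so these rates are not corrected for base composition.

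The position of a domain was also checked against sequence that occurs more than once in the genome. Of 50 words of 32 bp spread over each domain, a median of 2% had a further copy and the highest share was 40%, so no domain consisted mostly of repeated words. The 10 widest domains had 0 to 8%.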

How the data were processed

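Reads were aligned by the authors to the mm9 build (Bowtie2 2.2.1 in the submitters' processing notes), and ChromHMM was used to call enriched regions, whose edges fall on a 200 bp grid. The deposited list gives chromosome, start and end positions only, with no count, height or p-value, so the depth of the single library is unknown and a region missing from it may be under the calling threshold. Whether the list was made before or after the low-coverage filter in the methods is not given in the sources used here. For positions counted from 1, 1 was added to each start. Genes and starts came from GENCODE M1 on the same build (NCBIM37), counting any start of a protein-coding transcript unless the 5′-most is named. Shares carry 95% exact Clopper-Pearson intervals, and no test was run because width was the rule and there was 1 library. A host gene is the one with the largest overlap, the shorter on ties. The sequence of mm9 was read from the reference genome, and microRNA sequences from RefSeq (GRCm38.p6).

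Genes were named if they lay at the widest domains, had the most domains, lay wholly inside a domain, reached farthest from the TSS, shared a domain with most genes or belonged to a list with a domain. Some items are not reported here. Other genes named were chosen after their values were seen, Irf1, Pdx1, Krt8 and Tat among them. The domains and gene lists were chosen with earlier results of these data known. The position class and reach of a region, and the counting of repeated words, were tested on simulated data. The regions were placed at genes standing alone, with only the 5′-most start used, and other steps were not tested this way. The alternatives tried are in the closing section. Intervals used scipy 1.17.1, tables pandas 2.3.3 and numpy 2.4.6, and plots matplotlib 3.10.9, under Python 3.11.15.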

Additional observations from a re-analysis of the deposited data

How the results depend on the processing

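The domains come from 1 pooled library, so no replicate could be left out and an edge is known to 200 bp at best. No paired analysis was possible because the labels give 1 library. The counts moved with the width limit: 2200 domains and 748 genes with a covered TSS for regions over 8000 bp, and 467 and 173 over 15000 bp, where 8 listed genes had a TSS in a domain in place of 17, 63.2% of domains were in a gene without its TSS and 10.9% held 2 or more genes. Merging gaps of up to 1000 bp gave 35.8% of domains over a TSS and 55.5% in a gene without one. With the 5′-most start of each gene alone, 301 genes had a TSS in a domain, 18.9% of domains covered a TSS, 72.5% were in a gene without it and 82.8% reached farther downstream. With genes of every type these were 41.6%, 51.7% and 67.6%, and 17.7% of domains held 2 or more genes. Counting a TSS only within 2 kb of the midpoint gave 9.15%. Why these values moved was not tested. Of the 101 values under an alternative, 76 were kept. These include all those without the 4.43 Mb model Gm20388, an alternative chosen after seeing the data. A share was kept if inside its main interval, and a count if within 1.5 times the main count. A median or a base composition was kept if inside the quartiles over single domains. Those quartiles are a looser limit than the error of a median, so such values could move and still be kept. Motif rates without repeats were not run, since the genome used marks no repeats.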
